A study of Mus musculus with 12 samples.

Results

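Kinesin motor genes were followed in bulk RNAseq of sorted cranial motor neurons of mouse embryos. The set held every gene whose mouse symbol was Kif or Kifc with a number and an optional a, b or c, which gave 42 of the 49671 genes in the tables. By what each motor is known to do, 17 were grouped as transport kinesins, 14 as mitotic kinesins and 11 as cilia and other kinesins. *Kif21a*, the member for which the set was named, belonged to the transport kinesins. In all, 39 kinesins (17 transport, 13 mitotic, 9 cilia and other) passed the filter on low counts, among 18022 genes that were tested.

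Kinesins are motor proteins that use ATP to walk along microtubules or to shorten them. In neurons most of the transport kinesins carry vesicles, mitochondria and ciliary cargo away from the cell body. The mitotic kinesins build the spindle, move chromosomes and complete cytokinesis and are made mainly by dividing cells. *Kif21a* encodes a kinesin that limits microtubule growth at the cell cortex, where it is bound by *Kank1*, and altered human KIF21A causes congenital fibrosis of the extraocular muscles, a disorder of the oculomotor nerve.

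The study collected GFP-positive motor neurons of the oculomotor nucleus (cMN3), the trochlear nucleus (cMN4) and the facial nucleus (cMN7) at embryonic days e10.5 and e11.5, to measure expression in cell types relevant to congenital cranial dysinnervation. Each of the 6 groups had 2 replicates, A and B, so that there were 12 libraries. All libraries carried the genotype label WILDTYPE and an Isl1-pos title. The methods give the reporter as Isl MN:GFP, brought in by 129S1/C57BL/6J males that were mated to C57BL/6J females, so that only cells with an active reporter were sampled. Several litters were merged for a sample, embryo sex was not determined, and no agent was given. The methods also describe an amplified whole-transcriptome preparation at e10.5 and an mRNA preparation with depletion of globin and ribosomal RNA at e11.5, so that age and preparation cannot be told apart.

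The e10.5 libraries summed to between 13991802 and 21464350 estimated counts, and those of e11.5 to between 21938601 and 30536210. The share of ribosomal RNA loci lay between 8.86% and 30.2% in the younger libraries and between 0.0509% and 0.571% in the older ones. All 10 motor neuron markers were detected in each library, with a summed level of 4182 to 13444 CPM (counts relative to the library size, with TMM library factors), beside 992 to 1898 CPM for 17 neural progenitor markers, 15.5 to 147 for 10 erythroid markers, 8.72 to 117 for 11 mesenchyme and endothelium markers and 114 to 324 for 11 sensory ganglion and crest markers. In bulk samples fewer cells of a type and less RNA per cell cannot be told apart. A pair of libraries at e11.5 are called libraries that stood apart, for their differences from their replicates in the gene sets given below. Over all genes, the replicates of cMN3 and cMN4 at e10.5 agreed less (log2 CPM correlated by 0.961 and 0.965). In cMN4 and cMN7 at e11.5 the correlations were 0.983 and 0.982. Replicate B was over 2-fold higher for 7.72% and 7.68% of genes in the former groups, and for 4.36% and 4.53% in the latter. The SD of log2 ratios over abundant genes went the other way, with 0.323 and 0.335 against 0.38 and 0.481. Replicate B of cMN4 at e11.5 held 1901 CPM of 37 cell division genes against 536 in replicate A, with 5810 against 8365 CPM of motor neuron markers, and replicate A of cMN7 at e11.5 had 13 of 17 transport kinesins below replicate B, 1 of them (*Kif13b*) by over 2-fold, as were 4.53% of all genes. Many, though not all, results in which leaving them out ended a call or moved a value by over 1.5 times are given with and without them. In cMN7 at e10.5, 14 of 17 transport kinesins were higher in replicate A, with a median log2 ratio (B over A) of -0.05. That median was 0.26 in cMN7 at e11.5. In cMN4 at e10.5, 1 of 17 was over 2-fold higher in replicate B. Such counts alone thus do not set the cMN7 library of e11.5 apart. That library was described by the kinesins themselves, so that kinesin values without it are not independent of that choice. Without both, cMN4 and cMN7 at e11.5 held 1 library each.

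Transport kinesins made up most of the kinesin RNA of these neurons. Per length, in TPM (counts relative to transcript length and to the library), they held 78.8% to 92.3% of all kinesin TPM, the mitotic kinesins 2% to 15% and the others 5.65% to 10.3%. *Kif5c*, a heavy chain of conventional kinesin found mainly in neurons, was the highest kinesin in 12 of 12 libraries, with 234 to 464 TPM. It was followed by *Kif1b*, a carrier of synaptic vesicle precursors and mitochondria, with 134 to 323 TPM, by *Kif5a* with 63.7 to 243 TPM and by *Kif1a* with 54.7 to 209 TPM. *Kif21a* had 41.3 to 98.1 TPM and ranked between 5 and 9 among the 42 members.

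**Figure D1:**
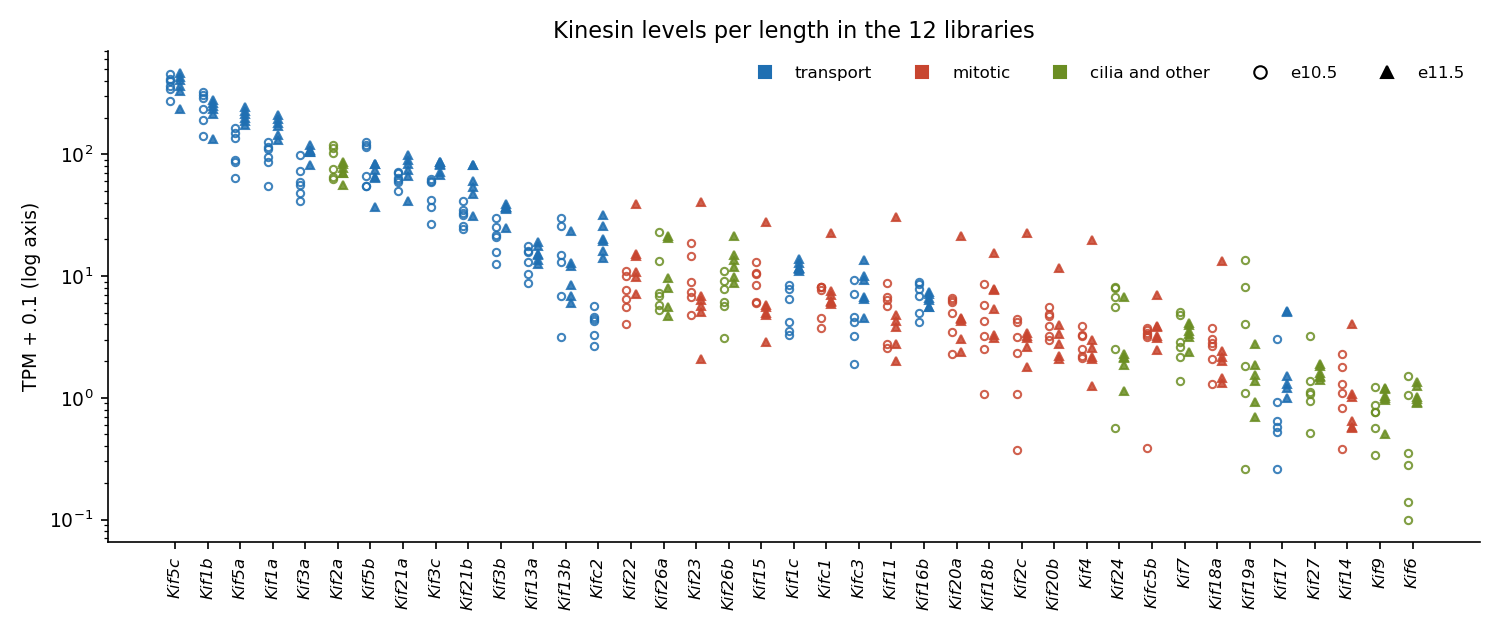
TPM of each tested kinesin in the 12 libraries, on a log axis after adding 0.1 TPM, in order of mean TPM. Open circles are e10.5 libraries, triangles e11.5 libraries, and colors the 3 groups of motors. *Kif5c* is highest, and for most mitotic kinesins a single e11.5 library lies above the others.

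*Kif5c* differed little between libraries. Its CPM in replicates A and B at e10.5 were 1017 and 930 in cMN3, 1234 and 1133 in cMN4 and 1119 and 1079 in cMN7, and at e11.5 they were 982 and 1023 in cMN3, 925 and 850 in cMN4 and 811 and 1039 in cMN7. It passed none of the tests with edgeR, with a log2 fold change of -0.00 (SE 0.09) between cMN3/4 and cMN7. *Kif1b* had, at e10.5, 918 and 897 in cMN3, 1080 and 1072 in cMN4 and 1018 and 989 in cMN7, and, at e11.5, 872 and 918 in cMN3, 832 and 847 in cMN4 and 604 and 989 in cMN7. The 604 CPM of cMN7 replicate A at e11.5 was its lowest value, and *Kif1b* passed none of the tests either. With the replicate as a block at e11.5, the differences between ages of *Kif5c* (-0.26, adjusted p = 0.0341) and *Kif1b* (-0.38, adjusted p = 0.0121) passed. In a comparison of ages that block sets the e11.5 level at that of replicate A.

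*Kif21a* lies at chr15:90933276-91049948 on the minus strand of GRCm38 (ENSMUSG00000022629). The sequence around its start, from RefSeq on the build GRCm38.p6, is shown because the set is named for this gene, as 120 bases before to 30 bases after the start.
Kif21a (chr15:91049922-91050071, minus strand): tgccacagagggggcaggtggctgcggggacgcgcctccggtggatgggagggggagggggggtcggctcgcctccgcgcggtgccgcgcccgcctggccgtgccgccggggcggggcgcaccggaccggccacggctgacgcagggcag
Capitals would mark the TTTGAA and TTCGAA letters of the cell cycle homology element, or the letters CCAAT, on either strand, and it holds none.

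In CPM, *Kif21a* was highest in cMN3 and lowest in cMN7. At e10.5 its CPM in replicates A and B were 309 and 360 in cMN3, 220 and 221 in cMN4 and 193 and 183 in cMN7, and at e11.5 they were 232 and 260 in cMN3, 186 and 231 in cMN4 and 130 and 201 in cMN7. The group means followed the order cMN3 e10.5 (335 ± 36.1 CPM, SD, n = 2), cMN3 e11.5 (246 ± 20.0), cMN4 e10.5 (221 ± 0.326), cMN4 e11.5 (208 ± 32.1), cMN7 e10.5 (188 ± 7.24) and cMN7 e11.5 (165 ± 49.8). The first 2 steps of this order separated libraries that did not overlap, and from cMN4 e10.5 downward each group overlapped the next.

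Over both ages *Kif21a* was 1.41-fold higher in cMN3/4 than in cMN7 (log2 0.49, SE 0.12, adjusted p = 0.0204 by edgeR's quasi-likelihood test). Within e10.5 the difference was 0.53 on the log2 scale (adjusted p = 0.0688) and within e11.5 it was 0.45 (adjusted p = 0.232), and neither passed. With both libraries that stood apart left out, the difference was 0.31 over both ages, 0.53 at e10.5 and 0.09 at e11.5. There cMN4 and cMN7 at e11.5 had 1 library each. Replicates with the same letter moved together at e11.5, and with the replicate as a block at that age both passed, with adjusted p = 0.00829 at e10.5 and 0.0245 at e11.5. The call rested on cMN3, since cMN3 alone was 0.70 above cMN7 on the log2 scale (adjusted p = 0.00569) and cMN4 alone 0.28 (adjusted p = 0.26), and it was lost without either cMN7 library of e10.5 (adjusted p = 0.0822 without A and 0.115 without B). On log2(TPM + 1) with limma the difference over both ages was 0.31 and did not pass (adjusted p = 0.343), and that at e10.5 was 0.04 (adjusted p = 0.935), or 0.33 after ribosomal RNA loci and mitochondrial genes were removed (adjusted p = 0.372).

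Between the midbrain nuclei, the difference of *Kif21a* (cMN3 minus cMN4) was 0.42 on the log2 scale and did not pass (SE 0.14, adjusted p = 0.0931), but passed with the replicate block at e11.5 (0.43, adjusted p = 0.0121). From e10.5 to e11.5 its log2 difference was -0.24 (adjusted p = 0.0983). With the block, which sets the e11.5 level at that of replicate A, it was -0.43 (adjusted p = 0.00226). It was 0.22 on log2(TPM + 1) (adjusted p = 0.29) but -0.28 on that scale after ribosomal RNA loci and mitochondrial genes were removed (adjusted p = 0.144). The sign thus turned only on the TPM scale that held these loci.

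*Kif21b*, the closest relative of *Kif21a*, also had its highest CPM in cMN3. At e10.5 its CPM were 233 and 214 in cMN3, 134 and 156 in cMN4 and 121 and 153 in cMN7, and at e11.5 they were 329 and 309 in cMN3, 210 and 171 in cMN4 and 144 and 228 in cMN7. At each age both cMN3 libraries lay above all libraries of the other nuclei in CPM. In TPM the group means at e10.5 were 33.7 in cMN3 (SD 11.1), 28.3 in cMN4 and 33.2 in cMN7. At that age the difference of *Kif21b* between cMN3/4 and cMN7 changed sign on log2(TPM + 1). *Kif21b* was 1.61-fold higher in cMN3 than in cMN4 (log2 0.69, SE 0.15, adjusted p = 0.0185; lost in 5 of the 12 fits that left out 1 library and, with 0.46 and adjusted p = 0.332, on log2(TPM + 1)), whereas its difference of 0.40 between cMN3/4 and cMN7 did not pass (adjusted p = 0.0755; 0.0481 with the block). The ratio of *Kif21a* to *Kif21b* TPM lay between 1.68 and 2.38 in the e10.5 libraries and between 1.01 and 1.90 in the e11.5 libraries.

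*Kank1*, whose protein brings KIF21A to the cell cortex, differed most among the 25 tested genes of the list of *Kif21a* partners and tubulins. Its CPM were 81.7 and 71.9 in cMN3, 18.1 and 24.0 in cMN4 and 12.2 and 12.8 in cMN7 at e10.5, and 132 and 120, 23.0 and 20.5, and 7.37 and 8.52 in the same nuclei at e11.5. No libraries of different nuclei overlapped at either age. *Kank1* was 4.59-fold higher in cMN3/4 than in cMN7 (log2 2.20, SE 0.12, adjusted p = 1.76e-07) and 4.61-fold higher in cMN3 than in cMN4 (log2 2.20, SE 0.12, adjusted p = 1.14e-06). In that list 4 genes were higher and 1 was lower in cMN3/4 than in cMN7, where 5.05% of all genes were higher and 6.18% lower, with a median log2 difference of -0.00 over the list beside -0.01 over all genes. The other higher members were *Mapt* (1.29), which encodes tau, and the microtubule-associated protein genes *Map2* (0.53) and *Map1b* (0.54).

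**Figure D2:**
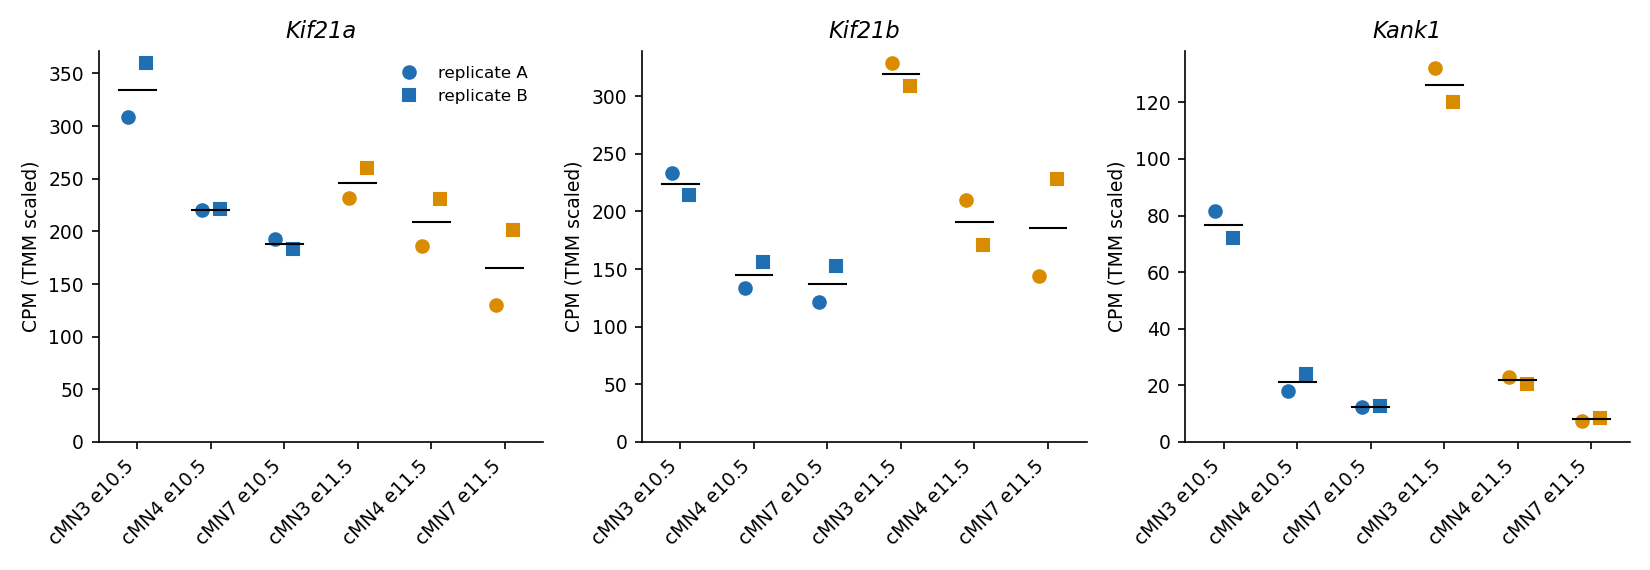
CPM (TMM scaled) of *Kif21a*, *Kif21b* and *Kank1* in each library by nucleus and age. Circles are replicate A, squares replicate B, lines the mean of both, blue e10.5 and orange e11.5. The cMN3 libraries lie highest at each age in all 3 panels, and *Kank1* separates the nuclei most.

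Among all kinesins, 3 were higher and 4 were lower in cMN3/4 than in cMN7 over both ages. The background was close to this, since 5.05% of the 18022 genes were higher and 6.18% lower. Beside *Kif21a*, the higher ones were *Kif3a*, a subunit of the heterotrimeric kinesin that also works in cilia, and *Kif17*, a motor of dendrites and cilia. The lower ones were *Kif13b*, which carries membrane cargo, and, among the cilia and other kinesins, *Kif26a*, *Kif26b* and *Kif19a*. The median log2 difference was 0.07 for 17 transport, 0.38 for 13 mitotic and -0.43 for 9 cilia and other kinesins, beside -0.01 for all genes. Without the 2 libraries that stood apart these medians were -0.02, -0.03 and -0.53. The mitotic kinesins then had 5 positive and 7 negative differences, against 11 and 2 over all libraries. On log2(TPM + 1) the median of the transport kinesins was -0.09, where all genes had -0.14. Of 17 progenitor markers 6 were lower and 0 higher in cMN3/4, and of 10 motor neuron markers 6 were lower and 2 higher, and their part in the kinesin differences was not tested.

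*Kif26a*, an unconventional kinesin known to restrain Ret signaling in enteric neurons, had the smallest p of the members in this comparison. Its CPM were 34.7 and 33.7 in cMN3, 23.5 and 28.4 in cMN4 and 44.5 and 80.4 in cMN7 at e10.5, and 27.9 and 16.2 in cMN3, 24.5 and 13.1 in cMN4 and 72.6 and 64.9 in cMN7 at e11.5. All cMN7 libraries lay above all others of their age. It was 2.66-fold lower in cMN3/4 (log2 -1.41, SE 0.20, adjusted p = 0.000544), with -1.07 at e10.5 (adjusted p = 0.0338) and -1.76 at e11.5 (adjusted p = 0.00257). It kept its call over both ages in 23 of 23 alternatives, whereas at e10.5 it fell to -0.59 without cMN7 replicate B (adjusted p = 0.462). *Kif26b*, its relative with a role in kidney development, was 1.51-fold lower over both ages (log2 -0.59, SE 0.13, adjusted p = 0.00944) and 1.77-fold lower at e11.5 (log2 -0.82, adjusted p = 0.0173). The first call was lost without cMN7 replicate B of e10.5. The second was lost without cMN3 replicate B, cMN4 replicate B or either cMN7 library of e11.5, and without both libraries that stood apart. Neither passed on log2(TPM + 1), with -0.73 over both ages (adjusted p = 0.0766) and -0.67 at e11.5 (adjusted p = 0.573).

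*Kif13b* was 2.14-fold lower in cMN3/4 than in cMN7 (log2 -1.09, SE 0.20, adjusted p = 0.0038). Its CPM were 26.5 and 16.1 in cMN3, 41.3 and 51.7 in cMN4 and 80.3 and 72.2 in cMN7 at e10.5, without overlap between nuclei, and 14.8 and 16.2 in cMN3, 29.8 and 29.6 in cMN4 and 23.5 and 57.3 in cMN7 at e11.5. There the cMN7 libraries differed most, and replicate A (23.5) lay below both cMN4 libraries. At e11.5 its difference of -0.92 did not pass (adjusted p = 0.123). With the 2 libraries that stood apart left out it was -1.41, where cMN4 and cMN7 had 1 library each. It was also 2.04-fold lower in cMN3 than in cMN4 (log2 -1.03, SE 0.25, adjusted p = 0.0297), a call lost in 8 of the 12 fits that left out 1 library.

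*Kif17* was low, with its highest libraries in cMN3. Its CPM were 4.01 and 1.48 in cMN3, 1.39 and 1.32 in cMN4 and 0.476 and 0.245 in cMN7 at e10.5, from 4 to 76 counts, and 6.13 and 5.89 in cMN3, 1.26 and 1.58 in cMN4 and 1.72 and 1.25 in cMN7 at e11.5, where both cMN3 libraries lay above all others. It was 3.23-fold higher in cMN3/4 than in cMN7 (log2 1.69, SE 0.39, adjusted p = 0.0144) and 2.93-fold higher in cMN3 than in cMN4 (log2 1.55, SE 0.40, adjusted p = 0.0413). The difference from cMN7 was lost without cMN7 replicate B of e10.5 (adjusted p = 0.104) or of e11.5 (adjusted p = 0.0503), and cMN4 alone did not pass (log2 0.92, adjusted p = 0.239). Neither difference of *Kif17* passed on log2(TPM + 1) (0.69, adjusted p = 0.12, and 1.01, adjusted p = 0.0859).

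*Kif3a* was 1.32-fold higher in cMN3/4 than in cMN7 (log2 0.40, SE 0.10, adjusted p = 0.0198). Its CPM were 149 and 117 in cMN3, 127 and 105 in cMN4 and 80.4 and 76.7 in cMN7 at e10.5, where it passed (0.66, adjusted p = 0.0104), and 151 and 133 in cMN3, 136 and 124 in cMN4 and 118 and 129 in cMN7 at e11.5, where the nuclei overlapped. Without cMN7 replicate A or B of e10.5 the call over both ages was lost (adjusted p = 0.0885 and 0.12), and without cMN3 replicate A of e11.5 the adjusted p was 0.0563. On log2(TPM + 1) the difference of *Kif3a* was 0.15 over both ages (adjusted p = 0.718) and 0.09 at e10.5 (adjusted p = 0.856), and neither passed. *Kif3c*, its partner in neurons, had 176 and 173 in cMN3, 207 and 208 in cMN4 and 209 and 202 in cMN7 at e10.5 and 269 and 254 in cMN3, 257 and 203 in cMN4 and 233 and 246 in cMN7 at e11.5 and passed no test between nuclei. *Kif19a*, which shortens microtubules at ciliary tips, was 3.27-fold lower in cMN3/4 (log2 -1.71, SE 0.46, adjusted p = 0.0344). Its counts were 2 to 169 per library, and the call was lost in 12 of 23 alternatives.

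Within e10.5, where all libraries shared a preparation, 2 kinesins were higher and 3 lower in cMN3/4 (5.33% and 6.16% of all genes). Within e11.5 edgeR called 0 higher, where DESeq2 also called 0 and 2 were higher at an unadjusted p under 0.05 in edgeR, and it called 2 lower, *Kif26a* and *Kif26b* (2.26% and 2.71% of all genes). On log2(TPM + 1) the median of all genes moved to -0.38 at e10.5, with 12.1% of the calls higher against 46.4% in the count test, and there 5 kinesins were called, all lower (15.1% of all genes). A test of the change in the nucleus difference between the ages called 0 of the 39 kinesins with edgeR and 0 with DESeq2, beside 1 at an unadjusted p under 0.05 in edgeR (background 0.311% higher and 0.444% lower). For *Kif21a* this change was -0.08 on the log2 scale (SE 0.24, adjusted p = 0.943).

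**Figure D3:**
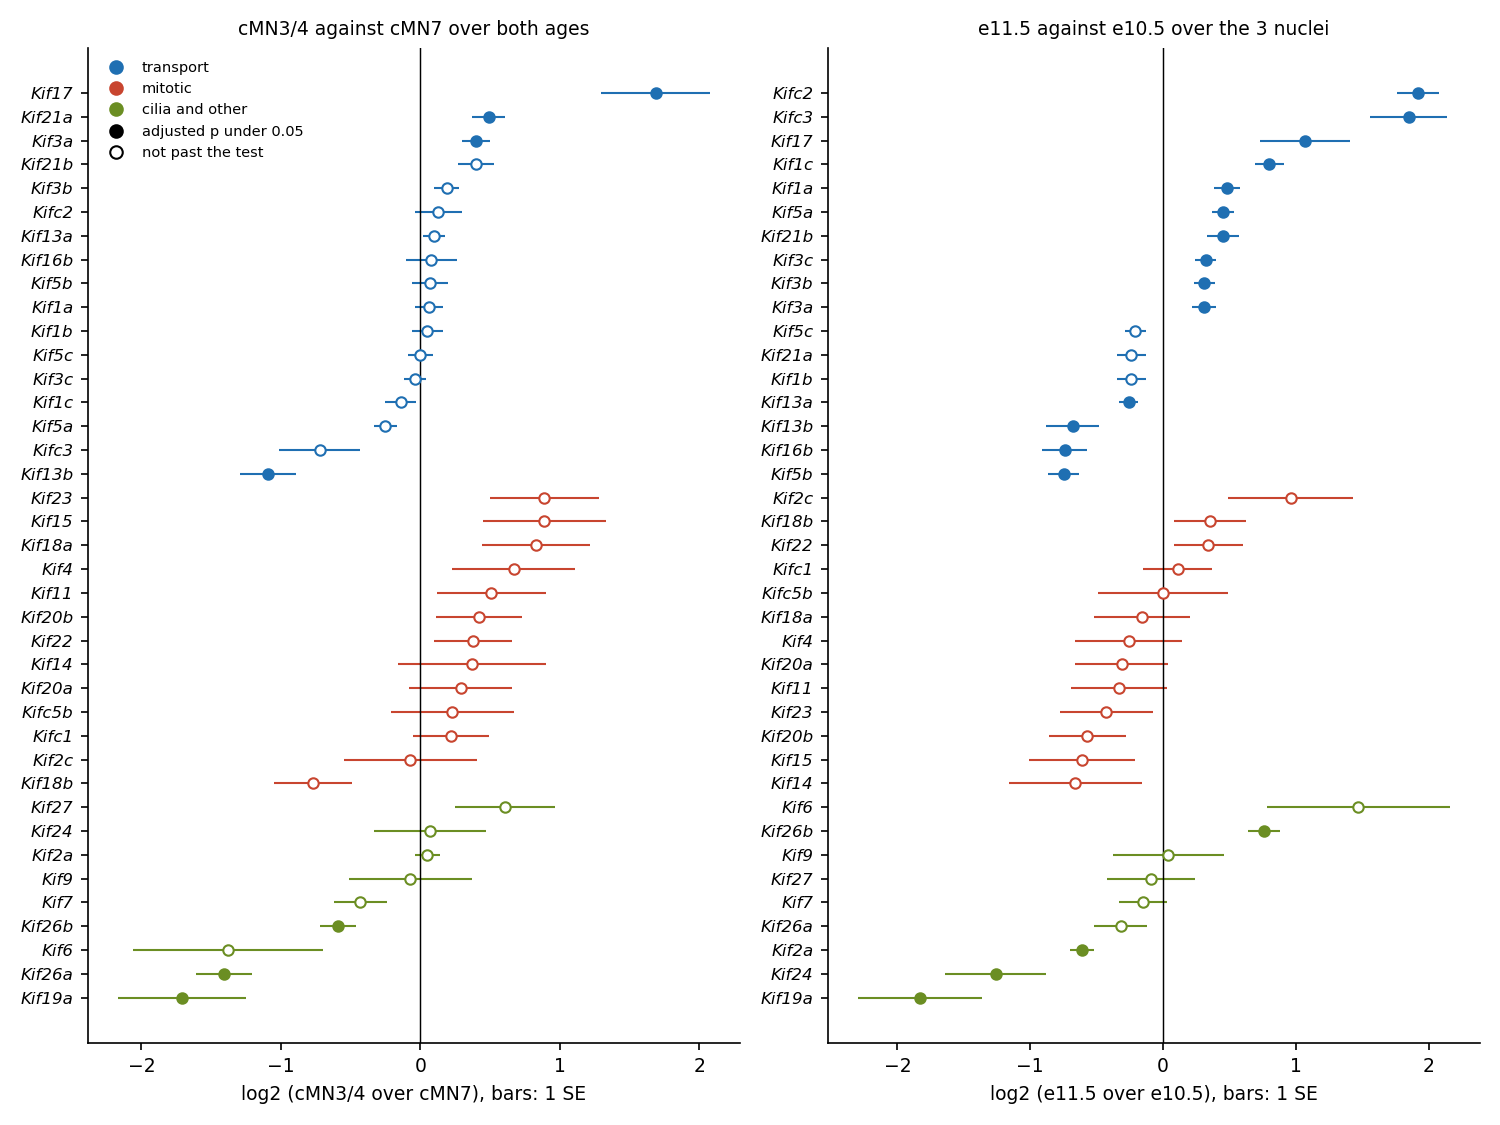
Log2 fold changes of the 39 tested kinesins between cMN3/4 and cMN7 over both ages (left) and between e11.5 and e10.5 over the 3 nuclei (right), with bars of 1 standard error, filled where the test was passed. Filled points lie above 0 for 3 and below 0 for 4 members on the left, and for 10 and 4 transport kinesins on the right, where *Kif13a* (filled) and *Kif21a* are among the 9 members that change sign on log2(TPM + 1), as 11 unfilled ones do on the left.

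With age, 11 of the 39 kinesins were higher at e11.5 than at e10.5 and 7 lower, while 26.6% of all genes were higher and 23.1% lower. Of 17 transport kinesins 10 were higher and 4 lower, and of 13 mitotic kinesins 0 passed in either direction with edgeR and 0 with DESeq2 (0 at an unadjusted p under 0.05 in edgeR). With the replicate block at e11.5, which sets that age at the level of replicate A, the count was 28. Of these 11 were higher and 17 lower, while 51.4% of all genes were called. On log2(TPM + 1) 12 were called, all higher (53.3% of all genes), where the median of all genes was 0.33 and 76.5% of the calls were higher against 53.5%. After ribosomal RNA loci and mitochondrial genes were removed from the TPM, 5 were higher and 8 lower (44.5% of all genes). Of 9 tested erythroid markers 6 were higher at e11.5, with a median of 1.95, and of 10 tested mesenchyme and endothelium markers 4 were lower and 10 negative, with a median of -1.15, and their part in the kinesin differences was not tested. The part of the preparation in these values cannot be told apart from age.

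The conventional kinesin heavy chains went in different directions. *Kif5a*, the heavy chain of mature neurons, had CPM of 379 and 378 in cMN3, 430 and 402 in cMN4 and 501 and 476 in cMN7 at e10.5, and 646 and 579 in cMN3, 562 and 452 in cMN4 and 603 and 670 in cMN7 at e11.5. *Kif5b*, the heavy chain made in most tissues, had 246 and 247 in cMN3, 292 and 228 in cMN4 and 269 and 259 in cMN7 at e10.5 and 149 and 169 in cMN3, 151 and 173 in cMN4 and 106 and 173 in cMN7 at e11.5, and all libraries of e11.5 were below all of e10.5. *Kif5a* was 1.37-fold higher at e11.5 (log2 0.45, SE 0.08, adjusted p = 0.000757) and *Kif5b* 1.68-fold lower (log2 -0.75, SE 0.12, adjusted p = 0.000411). The fall of *Kif5b* did not pass on log2(TPM + 1) (-0.35, adjusted p = 0.214), but passed there after ribosomal RNA loci and mitochondrial genes were removed (-0.85, adjusted p = 0.0065).

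As a share of the TPM of the 3 heavy chains, which does not depend on the library factor, *Kif5a* accounted for 16.2% to 23.2% in the e10.5 libraries and for 28.0% to 41.1% in those of e11.5, without overlap. The share of *Kif5c* was 59.0% to 70.4% in the younger and 50.9% to 59.8% in the older libraries, and that of *Kif5b* 11.2% to 17.9% and 8.04% to 13.4%, so that both overlapped between ages. At e10.5 the *Kif5a* shares of 22.5% and 23.2% in cMN7 lay above the 16.2% to 19.2% of the other nuclei, and at e11.5 the nuclei overlapped.

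**Figure D4:**
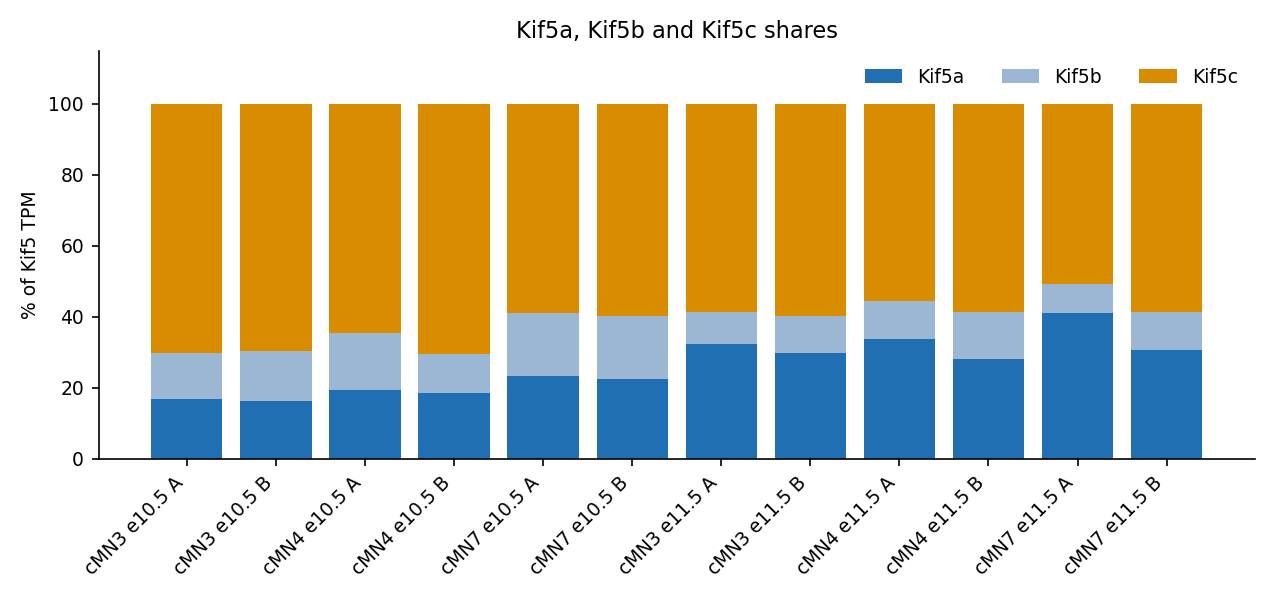
Share of *Kif5a*, *Kif5b* and *Kif5c* in their summed TPM, in percent, in each library. Bars are single libraries. The *Kif5a* share lies between 16.2% and 23.2% in the e10.5 libraries and between 28.0% and 41.1% in the e11.5 libraries.

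Other transport kinesins also changed with age. *Kif1a*, a carrier of synaptic vesicle precursors, had 417 and 344 in cMN3, 487 and 489 in cMN4 and 389 and 408 in cMN7 CPM at e10.5 and 719 and 596 in cMN3, 594 and 459 in cMN4 and 531 and 637 in cMN7 at e11.5, and was 1.40-fold higher (log2 0.48, adjusted p = 0.0017). The heterotrimeric kinesin subunits *Kif3a* (0.31), *Kif3b* (0.31) and *Kif3c* (0.32) were higher together, as were *Kif21b* (0.45), *Kif1c* (0.80) and *Kif17* (1.07). After the removal of ribosomal RNA loci and mitochondrial genes, *Kif3a* (0.27), *Kif3b* (0.26), *Kif21b* (0.33) and *Kif17* (0.59) did not pass on log2(TPM + 1). The largest differences were those of the minus-end directed motors *Kifc2* (1.92, SE 0.16, adjusted p = 6.49e-06) and *Kifc3* (1.85, SE 0.29, adjusted p = 0.000349). *Kifc2* had 6.36 to 9.08 CPM in the younger and 17.5 to 44.0 CPM in the older libraries, so that the ages did not overlap. *Kifc3* passed on neither TPM scale, with 0.70 (adjusted p = 0.057) and, after the removal, 0.29 (adjusted p = 0.465). The endosome kinesins *Kif16b* (-0.74), *Kif13b* (-0.68) and *Kif13a* (-0.26) were lower, and *Kif13a* was the only called member whose sign turned on log2(TPM + 1) (0.20). On that scale *Kif16b* (-0.05, adjusted p = 0.829) and *Kif13b* (-0.23, adjusted p = 0.464) did not pass, and after the removal both did (-0.50 and -0.69). *Kif13a* lost its call in 5 of the 12 fits that left out 1 library.

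Among the cilia and other kinesins, *Kif26b* was higher at e11.5 (0.76, adjusted p = 0.000386), a call lost on log2(TPM + 1) after the removal (0.41, adjusted p = 0.0966). *Kif2a*, which shortens microtubules and prunes axon branches, was the highest of that group, with 156 to 204 CPM in the younger and 107 to 127 CPM in the older libraries, and was 1.53-fold lower (log2 -0.61, SE 0.09, adjusted p = 0.000169). Its difference was -0.25 on log2(TPM + 1) and did not pass (adjusted p = 0.234), and -0.75 after the removal (adjusted p = 0.00133). *Kif24*, a centriole kinesin, had a difference of -1.26 (adjusted p = 0.0174), and *Kif19a* one of -1.83 (adjusted p = 0.00732). Leaving out cMN3 replicate A of e10.5 ended the calls of *Kif24* (adjusted p = 0.0882) and *Kif19a* (adjusted p = 0.145), as did log2(TPM + 1) (adjusted p = 0.0773 and 0.081).

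Partners of the motors moved in both directions with age as well. Of 25 tested light chains and adaptors 12 were higher and 3 lower, of 25 tested dynein and dynactin genes 12 were higher and 4 lower, and of 25 *Kif21a* partners and tubulins 12 were higher and 7 lower, where 26.6% of all genes were higher and 23.1% lower. The smallest p among them were those of *Stmn1* (1.60), *Mapt* (1.95), *Tuba1a* (1.70), *Fez1* (1.15), *Hap1* (2.28), *Arl8a* (0.88), *Actr1a* (0.84), *Dctn2* (1.02), *Dynlt1f* (1.39) and, lower, *Map1b* (-1.66), *Bicd1* (-1.58) and *Dync1h1* (-0.72). Between cMN3/4 and cMN7 the adaptors *Lin7a* (0.88) and *Fez2* (0.49) were higher, *Trak1* (-0.37) and *Apba1* (-0.34) were lower, and of the dynein and dynactin genes *Dynlrb1*, a dynein light chain, was higher (0.44). The nucleus difference of *Dynlrb1* also changed between the ages (-1.31, adjusted p = 0.0309). Between cMN3 and cMN4, *Stmn1* (0.63) and *Dynlrb1* (0.61) were higher and *Apba1* (-0.81) was lower in cMN3.

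Mitotic kinesins were low in most libraries and high in replicate B of cMN4 at e11.5. Their summed level was 347 CPM there and 74.5 CPM in replicate A, and in the other 10 libraries it ranged from 45.5 to 170 CPM. In TPM they were 15% of all kinesins in that library and 2% to 6.41% in the other 11 libraries. All 13 tested mitotic kinesins were higher in replicate B than in A, 12 of them by over 2-fold, with a median log2 ratio of 2.08, while 4.36% of all genes were higher by over 2-fold. Of the 17 transport kinesins 7 were higher in B and 0 by over 2-fold. In the same library 37 of 37 cell division genes were higher than in A (34 by over 2-fold), 14 of 17 progenitor markers were higher (8 by over 2-fold) and 10 of 10 motor neuron markers were lower. The part of such cells in the mitotic kinesin level was not tested. Replicate B was also the higher one elsewhere, by less. In the other groups 8 to 13 of 13 mitotic kinesins were higher in B, with median log2 ratios of 0.20 to 0.59. Between 0 and 2 of them were over 2-fold higher. Of the cell division genes, 36 of 37 were higher in B in cMN3 at e11.5 and 34 of 37 in cMN4 at e10.5.

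The most abundant mitotic kinesins showed this pattern singly. *Kif22*, a chromokinesin, had CPM of 7.5 and 8.17 in cMN3, 11.9 and 14.8 in cMN4 and 8.1 and 6.6 in cMN7 at e10.5, and 6.17 and 9.5 in cMN3, 8.83 and 29.9 in cMN4 and 10.2 and 10.1 in cMN7 at e11.5. *Kif23*, a motor of cytokinesis, had 10 and 6 in cMN3, 15.9 and 15.2 in cMN4 and 5.48 and 6.66 in cMN7 at e10.5, and 2.93 and 4.55 in cMN3, 5.37 and 31.6 in cMN4 and 4.01 and 4.92 in cMN7 at e11.5. *Kif15*, which helps to hold the spindle poles apart, had 7.5 and 14.1 in cMN3, 13.2 and 19.9 in cMN4 and 9.64 and 9.97 in cMN7 at e10.5, and 3.65 and 6.02 in cMN3, 5.61 and 41.4 in cMN4 and 2.91 and 5.55 in cMN7 at e11.5. In each of them the cMN4 replicate B of e11.5 was the highest of the 12 libraries.

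*Kif11*, the main motor that separates the spindle poles, had 8.82 and 11.1 in cMN3, 15.8 and 29.5 in cMN4 and 12.9 and 14.9 in cMN7 CPM at e10.5, and 4.14 and 7.56 in cMN3, 10.1 and 59.7 in cMN4 and 6.51 and 8.71 in cMN7 at e11.5. *Kif20a*, a further motor of cytokinesis, had 5.28 and 11 in cMN3, 8.52 and 15 in cMN4 and 10.6 and 11.4 in cMN7 at e10.5, and 3.57 and 6.49 in cMN3, 6.9 and 30.8 in cMN4 and 5.16 and 6.39 in cMN7 at e11.5. The same library was highest for *Kif11* and *Kif20a*. *Kifc1*, a minus-end motor of the spindle, had 4.86 and 7.3 in cMN3, 8.21 and 8.77 in cMN4 and 5.54 and 8.19 in cMN7 at e10.5, and 5.34 and 5.39 in cMN3, 6.63 and 19.2 in cMN4 and 7 and 5.84 in cMN7 at e11.5. *Kifc1* and *Kifc5b* are close copies, and how the counting split reads between them is uncertain. The other mitotic kinesins (*Kif2c*, *Kif4*, *Kif14*, *Kif18a*, *Kif18b*, *Kif20b*, *Kifc5b*) had 0.423 to 28.8 CPM.

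**Figure D5:**
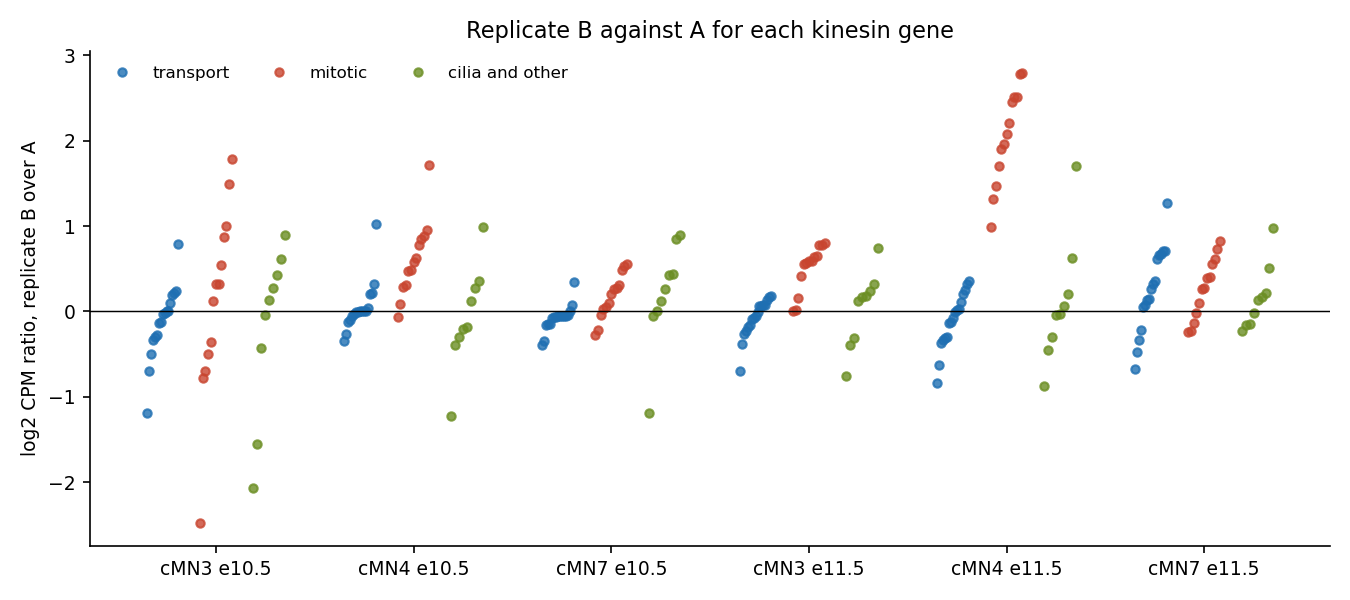
Log2 ratio of CPM + 0.5 between replicates B and A for each tested kinesin, by group and kind of motor, each point 1 gene. In cMN4 at e11.5 the 13 mitotic kinesins lie between 0.99 and 2.79, above all transport kinesins of that group, and in the other groups the 3 kinds overlap.

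In the comparison of cMN3 with cMN4, the mitotic kinesins depended on that library. Over both ages 2 kinesins were higher in cMN3 (*Kif21b*, *Kif17*) and 3 lower (*Kif13b*, *Kif11*, *Kif23*), beside 3.57% and 3.48% of all genes, and with the replicate block at e11.5 the count was 13 (4 higher, 9 lower, of which 7 were mitotic), with 10.9% of all genes called. *Kif11* was 3.68-fold lower (log2 -1.88, SE 0.45, adjusted p = 0.0303) and *Kif23* 3.09-fold lower (log2 -1.63, SE 0.44, adjusted p = 0.0469). All 13 mitotic kinesins had negative differences with a median of -1.28, and 37 of 37 cell division genes did with a median of -1.18. With both libraries that stood apart left out, the median of the mitotic kinesins was -0.50 with 13 of 13 negative, and the 3 kinesins past the test were transport kinesins, *Kif21a* (0.50, adjusted p = 0.00556), *Kif21b* (0.61, adjusted p = 0.00487) and *Kif13b* (-1.03, adjusted p = 0.00353), with 6.44% of all genes called. Without replicate B of cMN4 at e11.5 alone, *Kif11* was at -0.99 (adjusted p = 0.0867) and *Kif23* at -0.74 (adjusted p = 0.206), whereas *Kif21b* (0.61, adjusted p = 0.0695), *Kif13b* (-1.03, adjusted p = 0.0617) and *Kif17* (1.64, adjusted p = 0.108) missed the threshold with differences of like size. The 5 calls were also lost without either cMN3 library of e11.5 and on log2(TPM + 1). Without replicate A of cMN4 at e11.5 the count was 13 (5.5% of all genes), and DESeq2 called 14 (3 higher, 11 lower, of which 9 were mitotic, with 11.9% of all genes).

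The same library touched the mitotic kinesins in the other comparisons. Between cMN3/4 and cMN7 at e11.5 their median was 0.59 with 12 of 13 positive, and without the libraries that stood apart it was -0.21 with 11 of 13 negative. For the change in that nucleus difference between the ages, their median was 0.43 with 12 of 13 positive. It was -0.40 with 10 of 13 negative without these libraries. Between the ages 0 of 13 passed, but without these libraries 5 were lower at e11.5, namely *Kif15* (-1.15), *Kif23* (-0.96), *Kif20b* (-0.89), *Kif4* (-0.85) and *Kif11* (-0.84), with 19.5% of all genes lower and a median of -0.72 (-0.26 over all libraries, and 0.08 on log2(TPM + 1)). The replicate block at e11.5 sets the e11.5 level at that of replicate A in this comparison of ages. With it 7 of 13 were lower, and 24.6% of all genes. These were *Kif20a* (-0.97), *Kif11* (-1.12), *Kif20b* (-1.22), *Kif23* (-1.13), *Kif4* (-1.20), *Kif15* (-1.57) and *Kif14* (-1.50).

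Promoter sequence set the mitotic kinesins apart from the transport kinesins in the letters they held. RefSeq starts (GRCm38.p6, 250 bases before to 50 after) were matched for 33 of the 42 members, and were searched on both strands for TTTGAA or TTCGAA, letters of the cell cycle homology element, and for CCAAT. The first occurred in 11 of 13 mitotic promoters (84.6%), in 1 of 13 transport promoters (7.69%) and in 19.2% of all 32851 promoters. CCAAT occurred in 9 of 13 mitotic promoters (69.2%), in 4 of 13 transport promoters (30.8%) and in 37.4% of all. Both kinds occurred in 61.5% of mitotic and 7.52% of all promoters. *Kif4*, *Kif15*, *Kif11* and *Kif23* are shown for their ratios between the cMN4 replicates of e11.5. These are the largest of the mitotic kinesins apart from that of *Kif2c*, which is counted but not shown. The RefSeq starts of *Kif2c*, *Kif4* and *Kif15* lie inside the gene as annotated for the counts. The sequences shown are given as 120 bases before to 30 after the start with both kinds of letters in capitals on either strand. A match is a description of the letters and not a site.
Kif4 (chrX:100625945-100626094, plus strand): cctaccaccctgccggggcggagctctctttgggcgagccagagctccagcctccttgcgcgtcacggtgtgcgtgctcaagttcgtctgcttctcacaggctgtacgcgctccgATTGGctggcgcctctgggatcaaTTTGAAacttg
Kif15 (chr9:122950961-122951110, plus strand): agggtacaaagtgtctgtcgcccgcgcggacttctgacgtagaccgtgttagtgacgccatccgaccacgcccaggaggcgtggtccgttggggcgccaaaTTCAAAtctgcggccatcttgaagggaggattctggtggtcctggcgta
Kif11 (chr19:37376262-37376411, plus strand): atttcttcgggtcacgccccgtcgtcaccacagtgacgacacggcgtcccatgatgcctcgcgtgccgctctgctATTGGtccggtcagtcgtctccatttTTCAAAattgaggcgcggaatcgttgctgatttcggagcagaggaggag
Kif23 (chr9:61946770-61946919, minus strand): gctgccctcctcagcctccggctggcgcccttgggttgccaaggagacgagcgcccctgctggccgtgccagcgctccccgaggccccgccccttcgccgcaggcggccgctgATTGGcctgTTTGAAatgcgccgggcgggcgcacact
*Kif4*, *Kif15*, *Kif11* and *Kif23* were 7.72, 7.38, 5.92 and 5.88-fold higher in replicate B than in replicate A. *Kif4*, *Kif11* and *Kif23* held both kinds of letters in the stretch shown, and *Kif15* held the first kind only.

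A few members stayed near the limit of detection. *Kif2b* had 0 counts in the 12 libraries, *Kif12* had 3 and *Kif28* had 10, and these were not tested. *Kif6*, *Kif9*, *Kif14*, *Kif17* and *Kif27* had mean levels of 0.721 to 1.67 TPM. *Kif7*, a regulator of hedgehog signaling in cilia, had 4.06 to 10.7 CPM and passed none of the tests.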

How the data were processed

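Bulk RNAseq was analysed for 12 libraries of GFP-positive cMN3, cMN4 and cMN7 cells at e10.5 and e11.5, with 2 replicates each, grouped by the sample labels. The authors used STAR for alignment (Ensembl GRCm38.87) and deposited the expected counts of RSEM, not normalized, together with TPM and the effective length of each gene. Versions of STAR and RSEM were not given in the sources used here. cMN6 was not analysed here. Expected counts were rounded, filtered (filterByExpr, minimum count 10) and tested in R 4.3.3 with edgeR 4.0.16: TMM factors, a model of 6 group means over 12 libraries and quasi-likelihood tests, with Benjamini-Hochberg adjustment over 18022 genes and a threshold of 0.05. Standard errors came from the same fit. Litters were merged for the samples, and p-values measure the spread between replicates. The main test took all libraries as independent, although those of the same letter moved together at e11.5. Counts carry counting error as well as spread between libraries, and genes with few counts are the least precise.

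Alternatives were DESeq2 1.42.0 (the tool of the study), RLE factors, no filter, limma 3.58.1 on log2(TPM + 1), a replicate block, each library left out, each midbrain nucleus alone, single ages and removal of ribosomal RNA loci and mitochondrial genes. The omission of both libraries that stood apart, and TPM after that removal, were added after seeing the data. Deviations from the group means of same-lettered libraries correlated by 0.40 to 0.51 at e11.5, where every pair was over 0.1, and by -0.01 to 0.06 at e10.5, so that the letters pair the libraries at e11.5 only. The block at e11.5 was a term for replicate B, so that with it the age differences compare replicate A at e11.5 with e10.5. Differences between nuclei do not depend on that coding.

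Members and gene lists were chosen with earlier results of these data known. Values in each library were given for *Kif21a*, *Kif21b*, the 8 transport and the 6 mitotic kinesins highest in mean TPM, fold changes for members past a test, and for other lists the genes among the 4 smallest p-values past it. *Kank1*, *Kif26a*, *Kif13b* and *Kif17* were shown by library after their values were seen. The tests were tried on simulated data. Positions came from GENCODE (GRCm38) and promoters from RefSeq (GRCm38.p6).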

Additional observations from a re-analysis of the deposited data

How the results depend on the processing

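Age and library preparation cannot be told apart, each group had 2 libraries, and low members such as *Kif17* and *Kif19a* rest on few counts. The counts of kinesins below are not set against all genes, whose share called also moved with the setting. A changed count therefore cannot be read as particular to the kinesins. For cMN3 against cMN4 that share was 3.57% higher and 3.48% lower in the main test, 10.9% in all with the replicate block at e11.5 and 11.9% with DESeq2. For age it was 26.6% higher and 23.1% lower, and 51.4% in all with that block, which set e11.5 at the level of replicate A. The number of kinesins past the test was 7 for cMN3/4 against cMN7 over both ages, and 12 with no filter, 3 with limma on log2(TPM + 1), 2 with limma after removing ribosomal RNA loci and mitochondrial genes, 2 for cMN4 alone and 2 to 11 with each library left out. At e10.5 it was 5, and 1 for cMN4 alone, 8 without both libraries that stood apart and 0 to 6 with each library left out. At e11.5 it was 2, and 6 with no filter, 1 with limma on either TPM scale, 1 for cMN4 alone, 1 in the e11.5 libraries alone and 1 to 5 with each library left out. For cMN3 against cMN4 it was 5, and 14 with DESeq2, 17 with no filter, 0 with limma, 1 with limma after the removal, 13 with the replicate block at e11.5, 3 without both libraries that stood apart and 0 to 13 with each library left out. For age it was 18, and 28 with the replicate block at e11.5 and 15 to 24 with each library left out. For the interaction it was 0, and 1 with no filter and 0 to 2 with each library left out, where the 2 came without replicate B of cMN7 at e11.5.

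*Kif21a* (log2) over both ages was 0.31 with limma, 0.28 for cMN4 alone, 0.47 with limma after the removal, 0.31 without both libraries that stood apart (where it passed) and 0.35 to 0.67 with each library left out. At e10.5 it passed with DESeq2 (0.53), no filter (0.52), the replicate block (0.53), that block at e11.5 alone (0.53), cMN3 alone (0.83), the e10.5 libraries alone (0.54) and without both libraries that stood apart (0.53), but not with limma (0.04), limma after the removal (0.33) or cMN4 alone (0.23), with 0.45 to 0.58 with each library left out. At e11.5 it passed with no filter (0.47) and the block at e11.5 (0.48), but was 0.09 without both libraries that stood apart, with 0.18 to 0.81 with each library left out, and passed without replicate B of cMN7 at e11.5 (0.81). For cMN3 against cMN4 it passed with DESeq2 (0.40), no filter (0.42), the block at e11.5 (0.43) and without both libraries that stood apart (0.50), but not with limma (0.19 on either TPM scale), with 0.34 to 0.50 with each library left out. For age it passed with DESeq2 (-0.30), RLE factors (-0.30) and the block at e11.5 (-0.43), was 0.22 with limma and -0.28 with limma after the removal, and was -0.33 to -0.12 with each library left out. For the interaction it changed sign with limma (0.55), limma after the removal (0.27), cMN4 alone (0.10), without replicate A of cMN4 at e11.5 (0.01) and without replicate B of cMN7 at e11.5 (0.29), with -0.35 to 0.29 with each library left out. *Kif13a* with age was 0.20 with limma. The cause of these changes was not tested. Of 925 values of 42 gene results under the alternatives, 742 kept direction and call, 154 lost the call, 22 gained it and 7 changed sign.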
